A study of Rattus norvegicus with 12 samples.

Results

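Complement components and regulators were followed across INS-1E cells that had been given IL-1β, a cytotoxic cytokine mixture, or both. The set held 8 genes of the 34034 gene symbols counted: C3, C2, Cfb, C1s, C1r, Serping1, Cd55 and Cd59. They were taken by gene symbol, and the set was chosen by the C3 values of IL-1βlow and untreated libraries, where C3 was already higher with low-dose IL-1β alone. The contrast of IL-1βlow with untreated cells is therefore given as a description without a test. No row carried the symbol Cd59, and the row Cd59b was used, whose RefSeq gene lists Cd59 among its synonyms. All 8 genes passed the filter on low counts, but C1s did so only through the libraries that received CYT.

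INS-1E cells are a rat insulinoma line, a tumour-derived and glucose-responsive model of the pancreatic β-cell, and all groups were wild type. Bulk polyA RNA-seq was made for 4 groups of 3 libraries each. Untreated cells received no cytokine. IL-1βlow cells received 10 pg/ml IL-1β for 72 h, with cytokine added every 24 h. CYT cells were challenged for 16 h with 100 pg/ml IL-1β and 5 ng/ml IFN-γ. IL-1βlow + CYT cells received the low-dose conditioning first and then the challenge. The labels do not say whether untreated and IL-1βlow cells also had the medium renewal and further 16 h of the challenged groups. A difference in these cannot be told apart from the cytokines. The 3 libraries of a group are labelled biological replicates, and nothing read here says whether they came from separate thaws or passages of the line, so the p-values measure the spread between these libraries.

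Complement is a cascade of plasma proteases that tags surfaces and, at its end, inserts pores into them. In the classical pathway the proteases C1r and C1s, bound to C1q, cleave C4 and C2, and in the alternative pathway factor B (Cfb) takes the place of C2. Both routes end in a convertase that cleaves C3, the shared central component. Host cells hold the cascade back with the C1 inhibitor (Serping1), with Cd55, which speeds the decay of convertases, and with Cd59, which blocks the final pore. The liver makes most plasma complement, but many other cell types make components locally, and inflammatory cytokines raise several of them.

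The promoters of the members are shown because 4 of them were higher together after the challenge. RefSeq promoter sequences, 250 bases before to 50 after the start of the gene in the assembly GRCr8, were at hand for 3 of the 8 members. Of the members that were higher, C1s and Serping1 had no sequence and were not examined. Cd55, shown here, was not among the higher members. They are those of C3 (chr9:2201290-2201589, minus strand), C1r (chr4:159098763-159099062, plus strand) and Cd55 (chr13:44438052-44438351, minus strand), each printed 5′ to 3′ along the gene, with capitals for a match to the C/EBP motif TTGCNNAA on either strand.
C3: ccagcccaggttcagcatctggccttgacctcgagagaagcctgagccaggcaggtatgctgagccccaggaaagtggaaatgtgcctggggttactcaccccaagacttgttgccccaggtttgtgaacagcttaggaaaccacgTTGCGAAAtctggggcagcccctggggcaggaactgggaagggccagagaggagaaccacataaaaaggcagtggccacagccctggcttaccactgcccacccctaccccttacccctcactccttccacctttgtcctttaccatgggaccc
C1r: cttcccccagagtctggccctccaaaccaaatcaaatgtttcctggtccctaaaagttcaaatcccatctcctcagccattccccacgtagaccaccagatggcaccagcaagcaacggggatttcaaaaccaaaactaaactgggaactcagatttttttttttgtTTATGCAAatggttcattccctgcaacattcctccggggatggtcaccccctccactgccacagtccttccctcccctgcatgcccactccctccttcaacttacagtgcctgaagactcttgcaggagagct
Cd55: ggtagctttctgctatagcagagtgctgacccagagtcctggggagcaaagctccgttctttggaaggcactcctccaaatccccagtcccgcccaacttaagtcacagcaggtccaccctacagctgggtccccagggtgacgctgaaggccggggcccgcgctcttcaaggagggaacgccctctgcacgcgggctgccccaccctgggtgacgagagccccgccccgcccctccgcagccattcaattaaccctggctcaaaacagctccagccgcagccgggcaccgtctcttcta
The C3 window held the C/EBP letters at -104 to -97 from the start site, as TTGCGAAA. The C1r window held them at -83 to -76, read on the opposite strand, where the gene strand spells TTATGCAA. A match of this kind was present in 10.6% of 33469 promoters of the same length. The C1r match overlapped the octamer ATGCAAAT at -81 to -74, a word looked for only after the matches had been seen and held by 1.78% of all promoters. Neither the IRF letters GAAANNGAA (9.71% of all promoters) nor the NF-κB consensus (4.18%) was found on either strand in any of the 3 windows. The Cd55 window held no match to the C/EBP letters either. These are letter matches in a short window and not binding sites. GC content was 58.3% for C3, 50.3% for C1r and 63.7% for Cd55.

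Libraries held 15812640 to 20246806 counts (median 17461925.5). Expression is given as CPM, counts scaled to library size with TMM factors (TMM CPM), and the 14324 genes exceeding 1 CPM in 2 or more libraries were tested. Adjusted p-values come from the quasi-likelihood test of edgeR, corrected over those genes by Benjamini-Hochberg. To pass, a gene needed an adjusted p below 0.01 together with a log2 change larger than 1 in size. The transcript lengths of these genes were not used, so levels are compared between groups and never between genes. In bulk RNA, fewer cells of a kind cannot be told apart from less RNA per cell. Of 15 β-cell markers, 14 passed the filter, and G6pc2 had at most 4 counts. Their summed level was 45064 to 51907 CPM in untreated, 40183 to 46598 in IL-1βlow, 14903 to 15731 in CYT and 21767 to 27324 in IL-1βlow + CYT libraries. Of 11 leukocyte markers, 3 passed (Cd68, Adgre1 and Csf1r), and Ptprc, Cd14 and Tyrobp were at 0 in every library. Adgre1 had 0 to 1 counts in untreated and 0 in IL-1βlow libraries. It had 14 to 36 counts in CYT and 37 to 58 in IL-1βlow + CYT libraries. Over the 4 groups in that order, Csf1r had 9 to 13, 1 to 9, 1 to 5 and 21 to 32 counts. Cd68 had 5 to 19, 5 to 16, 17 to 22 and 12 to 18. The summed leukocyte level was 1.36 to 1.78 CPM in untreated, 0.923 to 1.59 in IL-1βlow, 2.39 to 3.69 in CYT and 4.68 to 5.88 in IL-1βlow + CYT libraries. Of 7 fibroblast markers, 2 passed (Pdgfra and Col1a2) and Dcn and Lum were at 0. Their sum was 12.6 to 16.4 CPM in untreated, 13.5 to 16.3 in IL-1βlow, 6.30 to 7.31 in CYT and 9.70 to 11.9 in IL-1βlow + CYT libraries, most of it from Pdgfra. The sum of 6 endothelial markers, of which 1 passed, was 3.78 to 5.44 CPM in untreated, 3.76 to 6.81 in IL-1βlow, 3.32 to 4.84 in CYT and 6.63 to 9.10 in IL-1βlow + CYT libraries. The sum of 6 hepatocyte markers, of which 1 passed, did not exceed 1.79 CPM in any library. For 6 other islet and exocrine markers, of which only Gcg passed, the sum was 185 to 367 CPM in untreated libraries. It was 155 to 259 in IL-1βlow, 24.4 to 63.3 in CYT and 73.2 to 151 in IL-1βlow + CYT libraries, nearly all from Gcg. These sums moved with the groups, and their part in the complement values was not tested.

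CYT raised C1r and Serping1, lowered Cd59, and left C2, Cfb and Cd55 without a call. C3 and C1s were also higher in every library given CYT than in untreated libraries, but they are described without a test against cells not given CYT, because the untreated and IL-1βlow values of C3 chose the set and C1s entered the test through the libraries where it was high. C1r and Serping1 thus passed higher and Cd59 lower, where 10.0% of all genes passed higher and 11.6% lower. C3 and C1s were past the thresholds too, which makes 4 of the 8 members higher and 1 lower. That count of 4 rests partly on selected values and is not compared with the share of all genes. The libraries of the 2 groups did not overlap for 6 members (all but C2 and Cfb), against 69.3% of all tested genes. The median log2 fold change was 1.68 over the 8 members, -0.19 without C3 and -0.04 over all genes tested. The value of 1.68 falls in a gap between Cfb at -0.19 and Serping1 at 3.56, so it is near the value of no member.

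C3, the component on which all activation routes converge, showed the widest range. Its level was 0.0573, 0.118 and 0.0608 TMM CPM in untreated replicates 1, 2 and 3, which is 1 or 2 counts in each library. It was 11.4, 7.97 and 8.20 CPM in IL-1βlow cells, 349, 313 and 362 CPM in CYT cells, and 142, 135 and 189 CPM in IL-1βlow + CYT cells. No library of one group overlapped another group, and the order was CYT, IL-1βlow + CYT, IL-1βlow and untreated. Against a floor of 3 counts per untreated library, C3 was at least 1926-fold higher with CYT and at least 875-fold higher with IL-1βlow + CYT. In IL-1βlow cells, the contrast on which it was chosen, the level was 9.19 ± 1.90 CPM (SD, n = 3), at least 51.8-fold above the same floor. The mean after both treatments, 155 ± 29.5 CPM, was below that after CYT alone, 341 ± 25.4 CPM (log2 fold change -1.14, SE 0.13, adjusted p = 8.4e-06). Between IL-1βlow + CYT and IL-1βlow cells the log2 difference was 4.07 (SE 0.16), given as a description.

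C1s and C1r are the paired serine proteases of the C1 complex, and they lie next to each other in the RefSeq annotation. C1s was at or under the floor without CYT, with 0.115, 0.178 and 0 CPM in untreated and 0.103, 0.123 and 0.185 CPM in IL-1βlow libraries, so no fold between those groups is given. It reached 2.66, 5.25 and 4.81 CPM in CYT libraries and 2.01, 1.84 and 2.08 CPM in IL-1βlow + CYT libraries. Every library given CYT thus lay above every library without it. C1s was at least 23.9-fold higher with CYT and at least 11.1-fold higher with IL-1βlow + CYT than in untreated cells, given without a test. Conditioning before CYT gave a lower C1s level than CYT alone (log2 fold change -1.10, SE 0.31, adjusted p = 0.0092). That call was close to the threshold and was lost in 8 of 12 fits, each without 1 library, with adjusted p up to 0.045. Each of the 3 IL-1βlow + CYT libraries, CYT replicates 2 and 3, IL-1βlow replicates 1 and 3 and untreated replicate 1 was such a library.

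C1r was detected in every library. Its level was 4.30, 5.09 and 5.65 CPM in untreated cells, 7.38, 10.6 and 6.23 CPM in IL-1βlow cells, 45.7, 69.5 and 64.2 CPM in CYT cells, and 32.8, 47.9 and 35.2 CPM in IL-1βlow + CYT cells. The CYT and IL-1βlow + CYT ranges overlapped, and the other neighbours in the order did not. CYT raised C1r by 3.58 on the log2 scale (SE 0.23, adjusted p = 8.0e-09), and CYT on conditioned cells raised it by 2.26 over IL-1βlow (SE 0.21, adjusted p = 2.8e-06). Between IL-1βlow + CYT and CYT the log2 fold change was -0.63 (SE 0.19, adjusted p = 0.014), which did not pass. IL-1βlow alone was 0.69 above untreated on the log2 scale (SE 0.24), a description. RefSeq places a long noncoding RNA across C1r, and the strand setting of the counting is not given in the sources used here, so reads of both could be joined. C1s has an annotated pseudogene, C1s-ps1, which could share its reads.

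Serping1 encodes the C1 inhibitor, which inactivates C1r and C1s. Its level was 2.01, 1.07 and 2.13 CPM in untreated cells, 5.95, 2.76 and 3.76 CPM in IL-1βlow cells, 22.0, 13.3 and 26.1 CPM in CYT cells, and 21.5, 13.4 and 23.3 CPM in IL-1βlow + CYT cells. Replicate 2 was the lowest library in each of the 4 groups. CYT raised Serping1 by 3.56 on the log2 scale (SE 0.35, adjusted p = 8.6e-07), and IL-1βlow + CYT raised it by 3.48 over untreated cells (SE 0.35, adjusted p = 4.1e-06). Between IL-1βlow + CYT and CYT the log2 difference was -0.08 with a 95% confidence interval of -0.69 to 0.52 (adjusted p = 0.83), so a fall or rise within that interval could not be seen. IL-1βlow cells were 1.27 above untreated cells on the log2 scale (SE 0.38), given as a description.

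The ratio of C1r to Serping1 counts within a library was 3.19 ± 1.40 (SD, n = 3) in untreated, 2.25 ± 1.40 in IL-1βlow, 3.26 ± 1.72 in CYT and 2.21 ± 1.19 in IL-1βlow + CYT cells. Replicate 2 had the highest ratio in every group, 4.78, 3.84, 5.23 and 3.58 in that order, and the groups overlapped. Between libraries of the same number, the ratio was lower in IL-1βlow + CYT than in CYT in 3 of 3 pairs (1.53 and 2.08, 3.58 and 5.23, 1.51 and 2.46). By number, IL-1βlow and untreated libraries had 1.24 and 2.14, 3.84 and 4.78, and 1.66 and 2.66. It was not shown that the numbers pair untreated libraries with the others, so these are not counted as pairs. These differences were not tested. These ratios are not divided by length and do not compare the amounts of the transcripts.

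**Figure D1:**
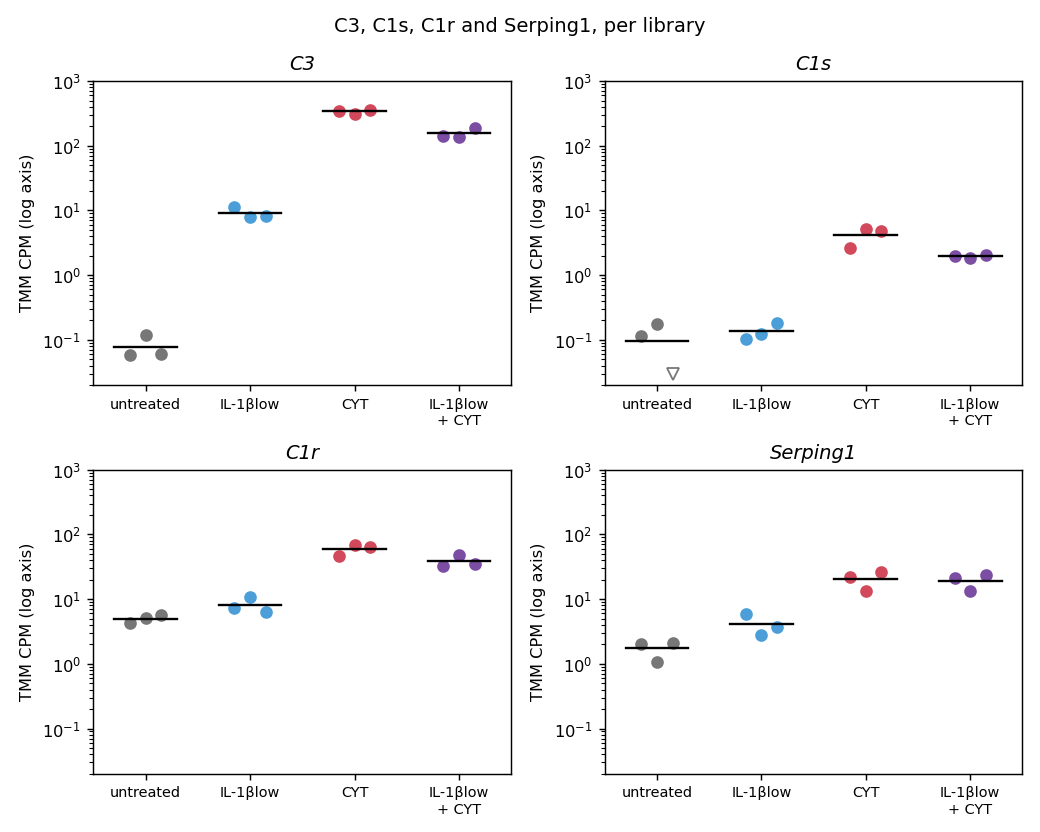
TMM CPM of C3, C1s, C1r and Serping1 on a log axis in the 12 libraries. Each point is a library, left to right replicates 1 to 3, the bar is the group mean, and the open triangle is a library with 0 counts. C3 sits at 313 to 362 CPM in CYT and at 135 to 189 CPM in IL-1βlow + CYT libraries, while the Serping1 libraries of these 2 groups overlap.

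C2 and Cfb, the catalytic partners of the classical and alternative convertases, are immediate neighbours in the annotation, and neither passed in any comparison tested. C2 measured 1.49, 1.36 and 1.82 CPM in untreated, 1.90, 1.53 and 1.54 CPM in IL-1βlow, 1.68, 1.40 and 0.920 CPM in CYT, and 1.46, 1.89 and 1.19 CPM in IL-1βlow + CYT libraries. All neighbours in the order of its means overlapped. CYT against untreated gave a log2 fold change of -0.23 for C2 (95% confidence interval -0.86 to 0.40, adjusted p = 0.52), from 18 to 38 counts per library. RefSeq places Zbtb12 across C2, so its reads may include those of another gene.

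Cfb measured 1.20, 1.07 and 1.58 CPM in untreated, 1.33, 2.33 and 2.04 CPM in IL-1βlow, 0.598, 1.34 and 1.43 CPM in CYT, and 1.09, 1.29 and 1.01 CPM in IL-1βlow + CYT libraries. Every group overlapped its neighbours in the order of means. CYT gave a log2 fold change of -0.19 for Cfb (95% confidence interval -0.94 to 0.57, adjusted p = 0.66). The IL-1βlow + CYT libraries all lay below the IL-1βlow libraries for Cfb (log2 fold change -0.73, SE 0.34), but the test did not pass (adjusted p = 0.21). These values rest on 11 to 38 Cfb counts per library. The ratio of C2 to Cfb counts within a library ran from 1.15 to 1.28 in untreated, 0.658 to 1.42 in IL-1βlow, 0.643 to 2.82 in CYT and 1.18 to 1.46 in IL-1βlow + CYT cells, and the groups overlapped.

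Cd59, the membrane inhibitor of the final pore, fell with CYT, and the fall was not seen when IL-1βlow came first. Its row read 17.0, 18.1 and 15.8 CPM in untreated, 18.3, 14.0 and 17.7 CPM in IL-1βlow, 8.64, 8.10 and 7.77 CPM in CYT, and 19.2, 18.6 and 23.3 CPM in IL-1βlow + CYT libraries. The CYT libraries lay below all others. The log2 fold change with CYT was -1.05 for Cd59b (SE 0.14, adjusted p = 1.2e-05). That value was just past the fold minimum, and without untreated replicate 2 or CYT replicate 3 it was -0.99 and no longer passed. IL-1βlow + CYT was 1.32 above CYT on the log2 scale (SE 0.14, adjusted p = 3.0e-06). Against untreated cells the level after both treatments differed by 0.26 for Cd59b (SE 0.13, adjusted p = 0.17), although the 2 sets of libraries did not overlap. Against IL-1βlow cells it differed by 0.29 (SE 0.13, adjusted p = 0.20).

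Cd55, which dismantles convertases on the cell surface, moved less. It measured 28.6, 32.7 and 27.4 CPM in untreated, 22.3, 21.7 and 28.8 CPM in IL-1βlow, 17.7, 20.1 and 17.8 CPM in CYT, and 19.5, 23.6 and 22.6 CPM in IL-1βlow + CYT libraries. The CYT libraries were all below the untreated ones, and their range overlapped that of IL-1βlow + CYT. The log2 fold change of Cd55 with CYT was -0.68 (SE 0.13, adjusted p = 4.5e-04), which is under the fold minimum. Between IL-1βlow + CYT and CYT it was 0.24 (SE 0.13, adjusted p = 0.14), and between IL-1βlow + CYT and untreated cells -0.43 (SE 0.13, adjusted p = 0.026).

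Counts of Cd55 per count of Cd59b were 1.74 ± 0.0650 (SD, n = 3) in untreated, 1.46 ± 0.216 in IL-1βlow, 2.27 ± 0.216 in CYT and 1.08 ± 0.160 in IL-1βlow + CYT cells. The CYT libraries (2.05, 2.48 and 2.29) lay above the IL-1βlow + CYT libraries (1.01, 1.27 and 0.972). An exact two-sided permutation test of these 3 against 3 libraries gave p = 0.1. That is the smallest value the design allows, and it follows from the lack of overlap. The test was run for this ratio only, and not for C1r to Serping1 or C2 to Cfb.

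**Figure D2:**
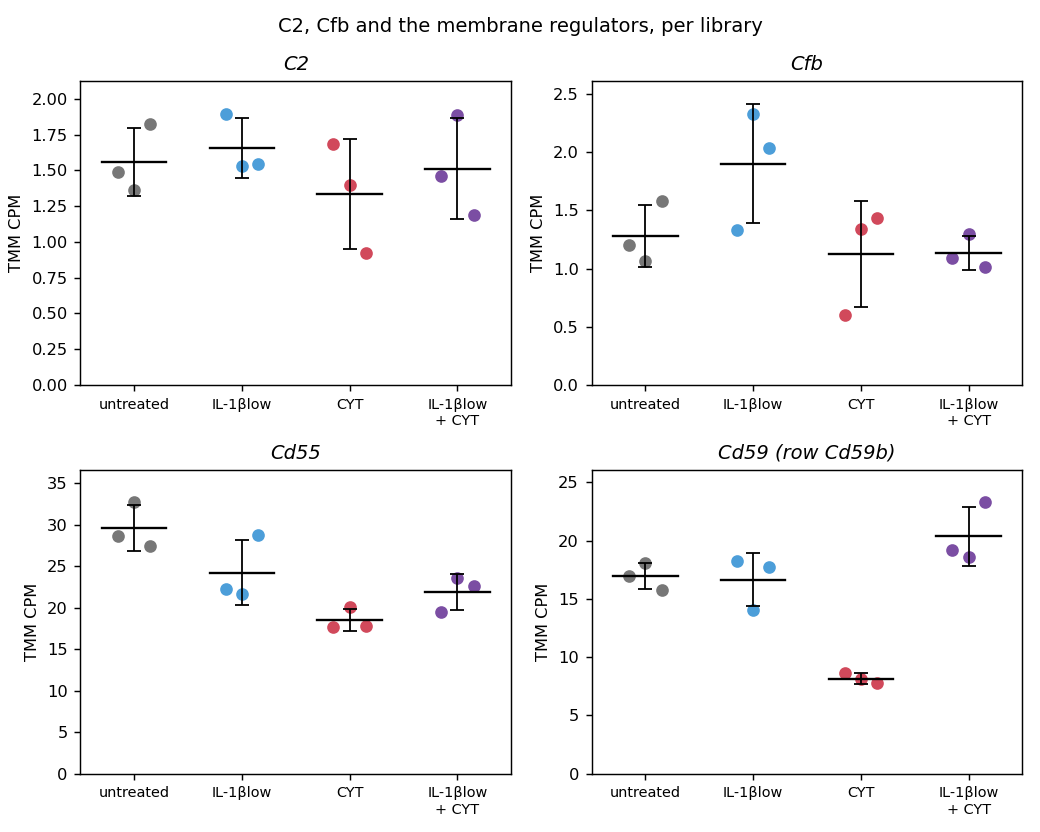
TMM CPM of C2, Cfb, Cd55 and Cd59 (row Cd59b) on linear axes from 0 in the 12 libraries. Points are libraries, left to right replicates 1 to 3, with the group mean and SD. The 3 CYT libraries of Cd59b sit at 7.77 to 8.64 CPM, below all others, and the groups of C2 and of Cfb overlap.

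Conditioning before the challenge lowered 2 members relative to CYT alone, C3 and C1s, and raised 1, Cd59. Over all genes, 6.54% passed higher and 5.92% passed lower between IL-1βlow + CYT and CYT. The libraries did not overlap for these 3 members, against 54.4% of all tested genes, and the median log2 fold change was -0.03 over the members, 0.02 without C3 and 0.02 over all genes. Relative to untreated cells, C1r and Serping1 rose after both treatments (C1r by 2.95 on the log2 scale, SE 0.22, adjusted p = 2.0e-07). Over all genes, 3.85% passed higher and 2.14% lower. C3 and C1s, described here without a test, were past the thresholds too, which makes 4 members higher and 0 lower. That count rests partly on selected values and is not compared with the share of all genes. The median was 1.61 over the 8 members, 0.26 without C3 and -0.005 over all genes. Between IL-1βlow + CYT and IL-1βlow cells C1r and Serping1 rose as well (Serping1 by 2.20 on the log2 scale, SE 0.31, adjusted p = 1.8e-04). Here 2.92% of all genes passed higher and 0.963% lower. With C3 and C1s, again described without a test, 4 members were past the thresholds higher and 0 lower. This count is not compared with the share of all genes either. The comparisons share libraries and are not independent of each other.

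The interaction contrast asked whether the response to CYT differed between conditioned and unconditioned cells. It was tested for the members other than C3 and C1s, and over all genes 5.48% passed higher and 5.20% passed lower. C1r responded less in conditioned cells (interaction -1.31 on the log2 scale, SE 0.30, adjusted p = 0.0040). The term subtracts the difference of IL-1βlow from untreated cells, 0.69 for C1r and not tested, from the difference after CYT. The latter was -0.63 and did not pass. The C1r call was lost in 4 of 12 fits made without 1 library each (untreated replicates 1 and 2, IL-1βlow replicate 2 and CYT replicate 2), with adjusted p up to 0.014. Cd59b responded in the opposite way, with an interaction of 1.34 (SE 0.19, adjusted p = 1.2e-04) that remained past the thresholds in all 12 such fits. For Serping1 the interaction was -1.36 (SE 0.47, adjusted p = 0.037) and did not pass, while it did with DESeq2 (-1.38, adjusted p = 0.0078) and without the filter on low counts (-1.41, adjusted p = 5.0e-06). The Serping1 term subtracts 1.27 without CYT, not tested, from -0.08 after CYT. The values for Cd55 (0.53, adjusted p = 0.036), Cfb (-0.54, adjusted p = 0.41) and C2 (0.10, adjusted p = 0.87) did not pass either. For C1s both groups without CYT were at or under the floor, so its value (-1.53, SE 0.90) cannot show whether the response differed.

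For IL-1βlow against untreated cells, 0.265% of all genes passed higher and 0.168% lower at the fold minimum of 0.6 used for this comparison. The members are given without a test because the choice of C3 used this contrast. The libraries of C3, C1r and Serping1 did not overlap between these 2 groups, as was the case for 23.7% of all tested genes. The log2 fold changes were 0.09 for C2 (SE 0.29), 0.56 for Cfb (SE 0.34), -0.29 for Cd55 (SE 0.13) and -0.02 for Cd59b (SE 0.13).

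**Figure D3:**
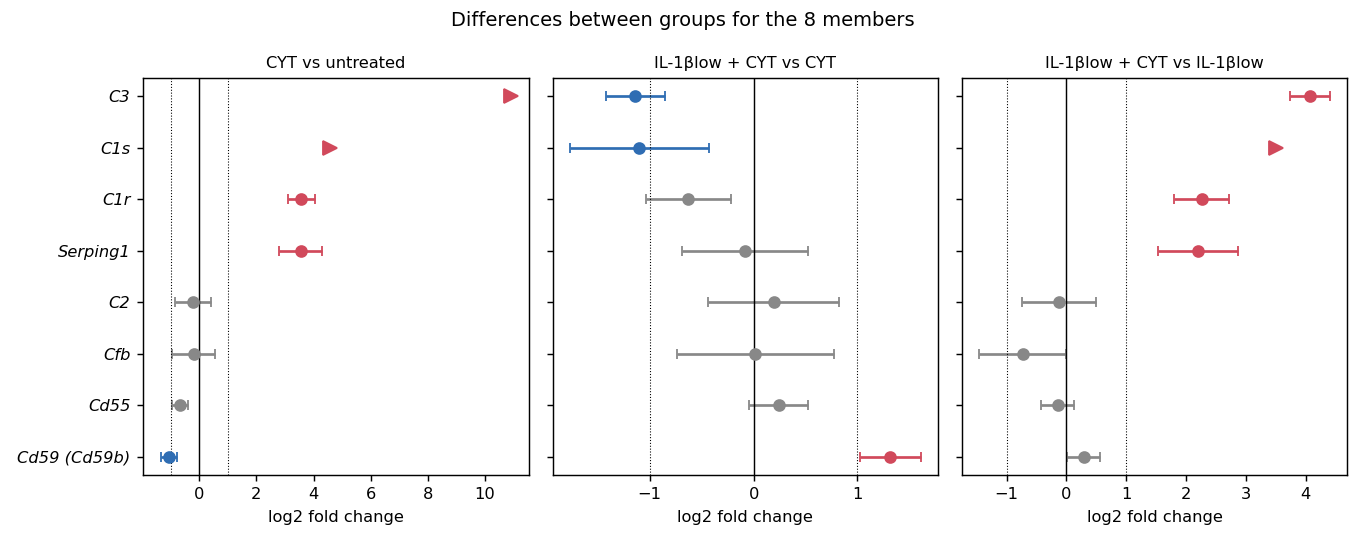
Log2 fold change of each member in 3 comparisons, with 95% confidence intervals. Red points were past the thresholds higher, blue points lower and grey points neither. The red C3 point between IL-1βlow + CYT and IL-1βlow is a description and not a test. Triangles mark lower bounds against groups at or under the floor of 3 counts, and dotted lines mark the fold minimum of 1 on the log2 scale. C3 and C1s lie left of 0 and Cd59b right of it between IL-1βlow + CYT and CYT.

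The remaining complement genes were read from a list of 46 further components, regulators and receptors. Only 16 of them passed the filter on low counts, and most of the others had few or no counts in these cells. C1qb had no count in any library, C1qc at most 1, and C4b at most 7. Factor D (Cfd) and the pore components C6, C7, C8a and C8b had at most 2 counts in any library, and factor I (Cfi) at most 1. C4a (12 to 52 counts per library), C5 (34 to 60), C8g (43 to 111) and C9 (5 to 22) did pass the filter. Of these, C8g, a chain of the C8 pore component, had a log2 fold change of 0.87 with CYT (SE 0.24, adjusted p = 0.0062), under the fold minimum. None of the 8 receptors, which include those for the C3a and C5a fragments, passed the filter.

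Among the 16 tested genes, 1 was past the thresholds higher with CYT and 4 lower, with a median log2 fold change of -0.39. Over all genes, 10.0% passed higher and 11.6% lower. The counts for the 16 include Colec12 and Masp2, described below without a test, and are not compared with those shares. Colec12, a scavenger receptor of the collectin family, measured 0.401, 0.710 and 0.243 CPM in untreated libraries and 2.34, 3.09 and 4.86 CPM in CYT libraries. It passed the filter only through libraries given CYT, so its difference from untreated cells (2.91 on the log2 scale, SE 0.39) is a description. It was lower after both treatments than after CYT (1.52, 1.09 and 1.78 CPM, log2 fold change -1.23, SE 0.33, adjusted p = 0.0068). That lower level no longer passed without CYT replicate 2 or 3 or without IL-1βlow + CYT replicate 1 or 2, with adjusted p up to 0.040. Masp2, the protease that starts the lectin pathway by cleaving C4 and C2, went the other way. It measured 1.83, 2.13 and 1.95 CPM in untreated libraries, 0.326, 0.408 and 0.358 CPM in CYT libraries and 1.70, 1.09 and 2.14 CPM in IL-1βlow + CYT libraries.

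No CYT library exceeded 1 CPM for Masp2, with 6 to 7 counts each, so it entered the test only through the other groups. Its differences are therefore descriptions. They were -2.42 on the log2 scale with CYT (SE 0.38) and 2.15 for IL-1βlow + CYT above CYT (SE 0.39). Masp2 was also the only gene of the 16 with an interaction past the thresholds (2.52, SE 0.51), on at most 36 counts per library, likewise a description. C1qa, a chain of the C1q recognition molecule, fell with CYT (log2 fold change -1.22, SE 0.25, adjusted p = 7.6e-04). Properdin (Cfp), which stabilises the alternative convertase, fell by 1.52 on the log2 scale (SE 0.40, adjusted p = 0.0045), a call lost without untreated replicate 2 or 3 or CYT replicate 1 or 2. Cpn1, a subunit of the carboxypeptidase that trims C3a and C5a, fell with CYT from 69.7, 76.6 and 82.7 CPM to 41.5, 37.1 and 27.8 CPM (log2 fold change -1.11, SE 0.13, adjusted p = 5.2e-06), and without CYT replicate 3 the change was -0.93 and under the fold minimum.

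Between IL-1βlow + CYT and CYT, 1 of the 16 genes, Colec12, passed lower, and Masp2, given as a description, was past the thresholds higher. Over all genes, 6.54% passed higher and 5.92% lower. The median log2 fold change of the 16 was 0.40. After both treatments, 2 genes were past the thresholds higher than in untreated cells and 0 lower, Colec12 and the carboxypeptidase Cpb2. Both entered the test only through libraries given CYT. Cpb2, singled out after its values were seen, had 3 to 7 counts in untreated and 16 to 29 counts in IL-1βlow + CYT libraries (log2 fold change 1.94), and it was 2.41 above IL-1βlow cells on the log2 scale, both given as descriptions. Between IL-1βlow and untreated cells 0 of the 16 passed edgeR's quasi-likelihood test, where 0.265% of all genes passed higher and 0.168% lower. For Colec12 the log2 fold change of IL-1βlow + CYT from untreated cells was 1.67, also a description. Fluid-phase clusterin (Clu), a regulator of the final pore, had a log2 fold change of 0.66 with CYT (adjusted p = 0.0025), under the fold minimum.

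**Figure D4:**
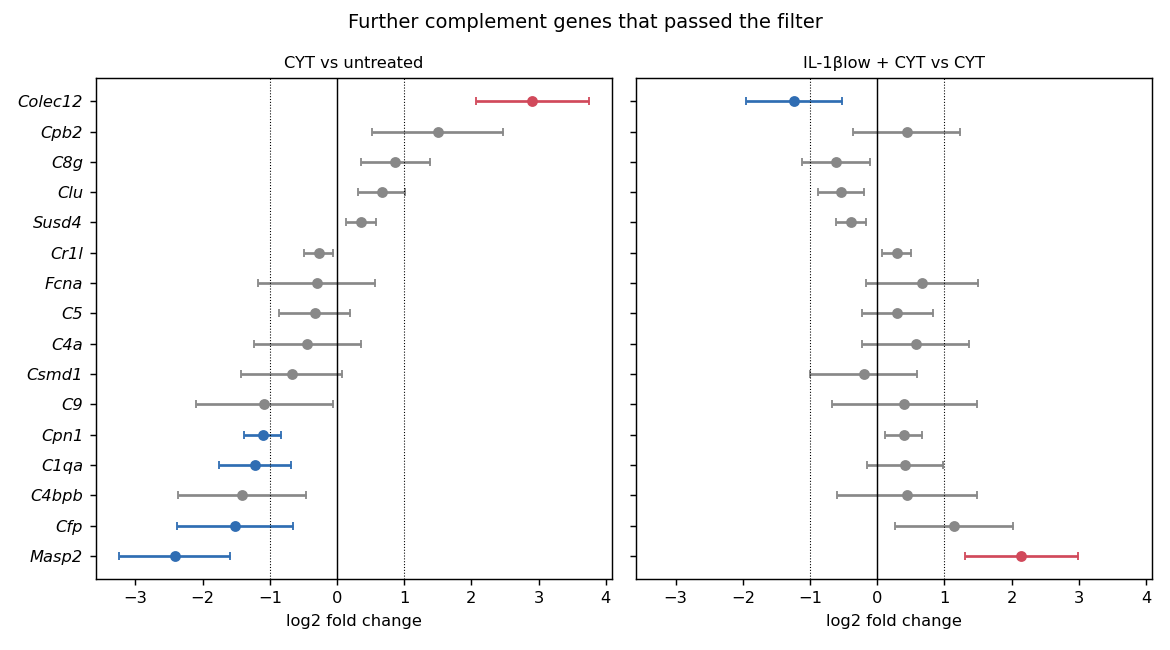
Log2 fold change of the 16 further complement genes that passed the filter, with 95% confidence intervals, for CYT against untreated cells (left) and IL-1βlow + CYT against CYT (right). Red points were past the thresholds higher, blue lower and grey neither, and dotted lines mark the fold minimum of 1 on the log2 scale. The red Colec12 point on the left and the Masp2 points in both panels are descriptions and not tests. Masp2 has the lowest value on the left, -2.42, and the highest on the right, 2.15.

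Across the 12 libraries the members split into sets by their TMM log2 CPM. Pearson's r was 0.96 between C1s and C1r, 0.93 between C3 and C1r, 0.95 between C3 and Serping1 and -0.85 between C3 and Cd55. It was 0.02 between C2 and Cfb. The points share 4 groups and their libraries, so these values describe the group pattern and carry no test.

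The 3 genes outside the set with the most similar pattern were found for each member among 13516 genes with a mean log2 CPM above 0, over the same 12 libraries. For C3 they were Cd74, the invariant chain of MHC class II (r = 0.99), the alkaline phosphatase Alpl (0.99) and Tmem86a (0.99). For C1r they were RT1-A2, a rat MHC class I gene (0.99), LOC100362709 (0.99) and Spg21 (0.99), and RT1-A2 has near-identical relatives whose reads may be shared. C1s was closest to Cxcl1, a neutrophil chemokine (0.99), Lrp4 (0.99) and Fgd5 (0.99). Serping1 was closest to Tnfrsf11b, the decoy receptor osteoprotegerin (0.98), the adenylate kinase Ak3 (0.98) and Tmem86a (0.98). Cd59b was closest to Cxxc4 (0.99), the fatty acid elongase Elovl2 (0.98) and the sestrin Sesn3 (0.98). Cd55 was closest to Gca (0.94), Pola1, the catalytic subunit of DNA polymerase alpha (0.93), and Mmadhc (0.93). C2 and Cfb had no gene as close, with Slc29a1 (0.88), Rnasek (0.87) and Flywch1 (0.87) for C2 and Prpf4 (0.87), Lsg1 (0.87) and Scfd2 (0.86) for Cfb.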

How the data were processed

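Bulk RNA-seq counts of INS-1E cells were analysed, 3 libraries in each of 4 groups. The authors trimmed reads with rfastp, aligned them with Rsubread to mRatBN7.2 and counted them per gene with featureCounts. The deposited values are raw counts, not normalized, 1 row per gene symbol, and the submitters' processing notes also name FastQC and R 4.3.3. The strand setting is not given in the sources used here. Columns were matched to groups by the library names in the labels, and 0 columns were unused.

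R 4.3.3 with edgeR 4.0.16, limma 3.58.1 and DESeq2 1.42.0 was used here. Genes exceeding 1 CPM in 2 or more libraries entered the tests (14324 of 34034, 99.9% of counts), TMM factors were calculated, and all 12 libraries entered one quasi-likelihood fit (common biological coefficient of variation 0.123, 8 residual degrees of freedom). P-values were adjusted by Benjamini-Hochberg. To pass, a gene needed an adjusted p below 0.01 together with a log2 change larger than 1 in size, or 0.6 for IL-1βlow against untreated cells, the thresholds of the study, which used exactTest. Where no library of the reference group exceeded 3 counts, the fold was computed against 3 counts per library and is a lower bound. Reads carry no molecular identifiers, so depth bounds counting error only. Chi-square per degree of freedom between replicates was 7.08 to 27.4, so no 2 libraries agreed within sampling noise. The smallest exact permutation p for 3 against 3 libraries is 0.1. Scripts were tested on simulated counts.

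Same-numbered libraries deviated together (every r above 0.1) between CYT and IL-1βlow + CYT (0.116, 0.475 and 0.453), between IL-1βlow and IL-1βlow + CYT (0.179, 0.469 and 0.520) and between IL-1βlow and CYT, but not in pairs with untreated cells (lowest r -0.189). The numbers come from the labels.

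The members, lists and motifs were chosen with earlier results of these data known. Named genes are the 8 members, further complement genes that passed with CYT or between IL-1βlow + CYT and CYT, and 3 genes per member with the highest r. Cpb2, Clu, C8g and the genes named for low counts were named after their values were seen. Of 4 motifs searched, 1 is not reported here. Cd59b stood in both lists and is counted as a member, which leaves 46 further genes. Alternatives were RLE factors, no filter, at least 10 counts in every library, DESeq2, exactTest, a replicate block, only the groups compared, an adjusted p under 0.05 alone, and each library left out. Promoters and gene neighbours are RefSeq's for GRCr8, which differs from the build of the counts.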

Additional observations from a re-analysis of the deposited data

Results flagged for a closer look

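The response to CYT differed between conditioned and unconditioned cells, by the interaction term of edgeR's quasi-likelihood fit, for 2 members. In that term 5.48% of all genes passed higher and 5.20% lower. The difference was -1.31 on the log2 scale for C1r (adjusted p = 0.0040), which responded less in conditioned cells, and 1.34 for Cd59b (adjusted p = 1.2e-04), which fell with CYT in unconditioned cells (-1.05) and had a value of 0.29 in conditioned cells. The C1r call was lost in 4 of 12 fits made without 1 library each. Masp2, outside the members, had a difference of 2.52. It is given as a description because Masp2 entered the test only through groups other than CYT. Groups of 3 libraries are too small for the test of single outlying libraries.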

How the results depend on the processing

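Over the alternatives run, the rises of C1r and Serping1 with CYT passed, and no called member changed direction. Requiring at least 10 counts in every library removed C3 and C1s from the test and gave 2 members higher (from 4) in CYT against untreated cells, in IL-1βlow + CYT against untreated cells and against IL-1βlow, and 0 lower (from 2) between IL-1βlow + CYT and CYT. Without the filter 0 members were lower with CYT (Cd59b at -0.98), and with only the groups compared 1 member was lower between IL-1βlow + CYT and CYT, as C1s had an adjusted p of 0.011.

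An adjusted p under 0.05 alone added C1r as lower between IL-1βlow + CYT and CYT (-0.63, adjusted p = 0.014), and added Cd55, giving 2 members lower with CYT and 1 lower in IL-1βlow + CYT against untreated cells. In the interaction it gave 2 higher and 2 lower. All genes passing then numbered 8926 with CYT (from 3096), 7267 between IL-1βlow + CYT and CYT (from 1785), 3124 against untreated (from 858), 1855 against IL-1βlow (from 556), 5337 in the interaction (from 1530) and 193 for IL-1βlow (from 62). That last count was 229 without the filter, 139 with DESeq2 and 138 with exactTest.

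Under a replicate block, the Serping1 interaction passed (-1.34, adjusted p = 4.9e-04), which made 2 members lower instead of 1, and 141 genes passed for IL-1βlow. DESeq2 (-1.38, adjusted p = 0.0078) and no filter (-1.41, adjusted p = 5.0e-06) also made 2. The block changed no other call of a member. It was not shown that numbers pair untreated libraries with the others.

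Leaving out 1 library gave 0 to 1 members lower with CYT, 1 to 2 lower between IL-1βlow + CYT and CYT, 0 to 1 lower in the interaction, and 16 to 87 genes for IL-1βlow, which fell to 21, 29 and 16 without untreated replicates 1, 2 and 3 and to 18 and 23 without IL-1βlow replicates 1 and 2.

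Sign changes occurred only for values near 0 that did not pass. For Cfb between IL-1βlow + CYT and CYT they were -0.0023 with RLE factors, -0.013 without the filter, -0.0049 with at least 10 counts and -0.0036 with DESeq2, and -0.32 to 0.21 with a library left out. C2 in IL-1βlow + CYT against untreated cells was 0.0086 without the filter. With a library left out, C2 ranged from -0.40 to 0.019 with CYT, -0.049 to 0.37 between IL-1βlow + CYT and CYT, -0.23 to 0.11 against untreated, -0.33 to 0.017 against IL-1βlow and -0.14 to 0.28 in the interaction. Cfb ranged from -0.38 to 0.15 with CYT and from -0.31 to 0.0026 in IL-1βlow + CYT against untreated cells, and Serping1 from -0.31 to 0.13 between IL-1βlow + CYT and CYT. The cause of these changes was not tested. Values of genes with few counts per library, C2, Cfb and C1s among the members, are limited by depth.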
